A study of Homo sapiens with 10 samples.

Results

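The comparison described here set the 6 h arrays of a time course against its 1 h arrays, and asked which transcripts had moved back towards their 0 h level by 6 h and which had not. It used the 4 arrays labelled 1 h and 6 h, of 10 arrays in all, and took the level to return to from the 0 h arrays. The cells were MOLT-4, an established human line of T-cell acute lymphoblastic leukaemia, treated with MABL, an antibody against CD47. Each of 0 h, 1 h and 6 h had 2 arrays, and the labels list MABL at 10 ug/mL for all of them together with GAM at 50 ug/mL, so the 0 h controls carry both agents too. The labels do not spell out GAM. No arrays of untreated cells kept for 1 h or 6 h were analysed here, so antibody, GAM, handling and time in culture cannot be told apart. Nothing states that the replicates were separate cultures, so each p-value covers no more than how far these samples differ from each other, and that may be technical variation.

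CD47 is a widely expressed membrane protein that binds thrombospondin and SIRP alpha, and some antibodies against it can kill leukaemia cells. The genes that moved most between 1 h and 6 h included known targets of the hypoxia-inducible factors. These are transcription factors whose alpha subunits are hydroxylated and destroyed when oxygen is plentiful and build up when it is scarce. They then bind a short DNA element and raise genes for glucose uptake, glycolysis, mitophagy and vessel growth.

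Levels are given on a log2 scale read from the deposited values. A probe set is a group of oligonucleotides on the array read as 1 signal, and some probe sets match several genes. Of 22215 probe sets that are not array controls, 4276 (19.2%) reached log2 5 on at least 2 of the 10 arrays and were tested. The nearest probe sets on each side of that bound had a second highest deposited value of 25.004 and 24.997, where the bound is 25. Of 16 T-ALL and thymocyte marker genes on the array, 12 passed the filter, CD3D, CD3E, CD1A, DNTT and LCK among them, and CD2, CD4, CD7 and RAG1 did not. Their median level was 7.10 at 1 h and 7.09 at 6 h. No monocyte (of 8) or erythroid (of 4) marker passed, and IGHM alone of 7 B-cell markers and COL1A1 alone of 9 fibroblast and epithelial markers did. The 18S rRNA control probe sets averaged 9.03 ± 0.88 (SD, n = 2) at 0 h, 10.68 ± 0.64 at 1 h and 11.67 ± 0.49 at 6 h, and the spike-in controls 10.00 ± 0.29, 10.25 ± 0.19 and 10.63 ± 0.032. Both thus stood higher at 6 h than at 1 h, together with the changes below, and their part in those changes was not tested. With the 18S level as a covariate, 744 probe sets were called from 1 h to 6 h, 233 of them lower, and with the spike-in level 463, of which 300 were higher and 163 lower. Replicate arrays correlated at r of 0.991 to 0.994 over the tested probe sets.

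The core of the hypoxia response element, ACGTG or GCGTG on either strand, was searched in RefSeq promoter windows (GRCh38.p14, 250 bases before to 50 after the start). Of 11 hypoxia list genes and 10 glycolysis list genes that rose from 1 h to 6 h, 9 of each had windows in the table. All 9 hypoxia genes held a match in a window, and 7 of them one to ACGTG. All 9 glycolysis genes held a match in a window too, and 5 one to ACGTG. Counted by window, 10 of 10 hypoxia windows and 15 of 20 glycolysis windows held a match, where 48.4% of all 35116 windows in the table did, and 21.4% held ACGTG. Genes have more than 1 window, so a count by gene is not on the same footing as that share. The hypoxia list holds known targets, so matches follow in part from its making, and these counts test nothing. Members that did not rise were not searched. SLC2A1 and PFKFB3 count in both lists. ADM, BNIP3, BHLHE40, P4HA1 and SLC2A1 did not pass the filter without the 6 h arrays. Shown here are the windows of ADM, the gene that rose most, of BNIP3, which has the most matches of the hypoxia list, and of LDHA, whose first window also has 6. Each is printed 5′ to 3′ on the strand of the gene, with matches in capitals. CACGT and CACGC are the same letters read on the opposite strand, and CACGTG counts on both strands. A match describes the letters and does not show binding. ADM lies at chr11:10304823-10305122 (plus strand), BNIP3 at chr10:131981874-131982173 (minus strand) and LDHA at chr11:18394313-18394612 (plus strand).
ADM: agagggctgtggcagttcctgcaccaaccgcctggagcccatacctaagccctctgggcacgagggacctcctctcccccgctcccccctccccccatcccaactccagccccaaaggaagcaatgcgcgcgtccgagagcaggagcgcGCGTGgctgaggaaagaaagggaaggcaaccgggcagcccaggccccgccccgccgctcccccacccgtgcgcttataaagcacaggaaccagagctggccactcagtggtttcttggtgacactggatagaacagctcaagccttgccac
BNIP3: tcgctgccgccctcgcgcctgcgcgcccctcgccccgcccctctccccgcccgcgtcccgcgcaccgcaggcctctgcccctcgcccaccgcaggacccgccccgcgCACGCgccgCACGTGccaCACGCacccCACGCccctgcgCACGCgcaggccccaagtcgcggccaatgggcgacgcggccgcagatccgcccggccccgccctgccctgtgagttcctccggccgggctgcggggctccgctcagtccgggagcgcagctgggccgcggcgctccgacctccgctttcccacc
LDHA: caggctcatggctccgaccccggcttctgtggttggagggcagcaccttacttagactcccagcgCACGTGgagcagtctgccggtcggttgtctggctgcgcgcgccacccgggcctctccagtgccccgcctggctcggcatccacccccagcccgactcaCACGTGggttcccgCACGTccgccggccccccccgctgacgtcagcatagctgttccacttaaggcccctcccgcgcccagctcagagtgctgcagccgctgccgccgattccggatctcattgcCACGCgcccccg

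Between 1 h and 6 h, 1022 of the 4276 tested probe sets changed at an adjusted p under 0.05 (limma, Benjamini-Hochberg over all tested), 522 of them upwards (12.2%) and 500 downwards (11.7%). On all of these, both 6 h arrays lay on one side of both 1 h arrays. The rises were larger: 293 rises and 83 falls passed 1 on the log2 scale, a 2-fold change. By a fold rule with no test, 5.73% of probe sets had both 6 h arrays more than 1 above the 1 h mean and 1.22% had both more than 1 below it. The median difference over all tested probe sets was -0.06. Of the rises, 21 were of probe sets that passed the filter on 6 h arrays only, so they had to differ, and 3 falls were of probe sets that passed on 1 h arrays only. Where a mean lies under 5, near the background of the array, the difference with values raised to 5 stands beside it. Counts depended on single arrays. In all they came to 537 and 629 when the first or the second 1 h array was left out, and to 564 for the second 6 h array. Rises then numbered 301 (second 1 h array) and 290 (second 6 h array). Falls numbered 160 and 328 for the 1 h arrays in turn, and 315 and 274 for the 6 h arrays. Differences of single genes named below kept their call without any 1 array unless the loss is stated. Of 140 called probe sets that the naming rule picks, 67 lost their call in at least 1 of 21 other fits. Among genes described below, testing with no filter ended the calls of WSB1, BNIP3L (brighter probe set), SLC2A1, ALDOA, ALDOC, PKM, PFKM, HSPD1, RRM1, CANX, PDIA4, ATF4, CASP2, MLX, TXNIP, GNAI3 and CD47. The spike-in covariate ended those of BNIP3L, SLC2A1, ALDOA, PKM, PFKM, PDIA4, ATF4, CASP2, MLX, TXNIP and CD47.

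Set against 0 h, 28.4% of the tested probe sets were called at 1 h, with 1036 lower (24.2%) and 177 higher (4.14%), and at 6 h 925 were lower (21.6%) and 174 higher (4.07%). Array medians fell by 0.29 from 0 h to 1 h and by 0.25 from 0 h to 6 h, and moved by 0.04 from 1 h to 6 h. With equal array medians the split at 1 h was 834 lower and 1389 higher and at 6 h 603 lower and 613 higher, so directions against 0 h depend on the scaling far more than those from 1 h to 6 h (690 lower and 613 higher). With the 18S level as a covariate, 0 probe sets were lower and 6 higher at 6 h than at 0 h. The 3 comparisons share arrays, and their values are therefore placed side by side and not correlated.

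Of the 1036 probe sets lower at 1 h, 432 rose by 6 h. Of these, 355 returned, meaning that 6 h no longer differed from 0 h by the test, 51 returned in part and stayed below 0 h, and 26 passed the 0 h level. A further 376 stayed low with no call from 1 h to 6 h, 24 fell further and 204 could not be placed. The returned group had a median fall of 1.35 at 1 h and rose by 1.17, which regained a median of 89.3% of the fall. The part-returned group regained 49.6%, those that stayed 7.15%, and all 1036 together 48.5%. The sorting into classes fixes these shares, which describe the classes and test nothing. At 3 h the returned group stood at a median of -0.82 from 0 h and the group that stayed at -0.95, and at 0.5 h these medians were -0.97 and -0.64. The levels at those times define no class, but their arrays enter the fit and so the error behind each call. With the 18S level as a covariate, 66 returned from below and 0 returned in part, passed or stayed low, and with the spike-in level these were 234, 0, 1 and 6. The mean 18S level rose at each successive time, so that covariate overlaps with time. Part-returned, passed and stayed low all need a call at 6 h against 0 h, which few probe sets had with either covariate, so these counts do not show a return. With equal array medians 65 passed and 217 stayed low. Of the 177 probe sets higher at 1 h, 38 returned, 12 passed to below 0 h and 44 stayed high, numbers that equal array medians took to 284 for returned and 355 for stayed high. A further 514 moved from 1 h to 6 h with no call at 1 h: 88 rose, 66 of them to above 0 h, and 426 fell, 290 of them to below 0 h.

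These class sizes also turned on single arrays, given here in the order of replicate 1 and replicate 2 of a time. Returned from below numbered 196 when 1 h replicate 2 was left out and 208 when 6 h replicate 2 was. Stayed low numbered 111 for 0 h replicate 1, 231 for 1 h replicate 2 and 178 for 6 h replicate 1. Part-returned numbered 12 for 0 h replicate 1, 26 and 12 for the 1 h arrays, 86 for either 3 h array, and 15 and 8 for the 6 h arrays. Passed from below numbered 8 and 13 for the 0 h arrays and 15 for 1 h replicate 2. Returned from above numbered 16 and 17 for the 0 h arrays, 10 and 16 for the 1 h arrays and 14 for 6 h replicate 2. Stayed high numbered 14 for 0 h replicate 1, 22 and 24 for the 1 h arrays and 24 for 6 h replicate 1. Late falls to below 0 h numbered 156 for 0 h replicate 1, 123 for 1 h replicate 1, and 139 and 189 for the 6 h arrays.

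**Figure D1:**
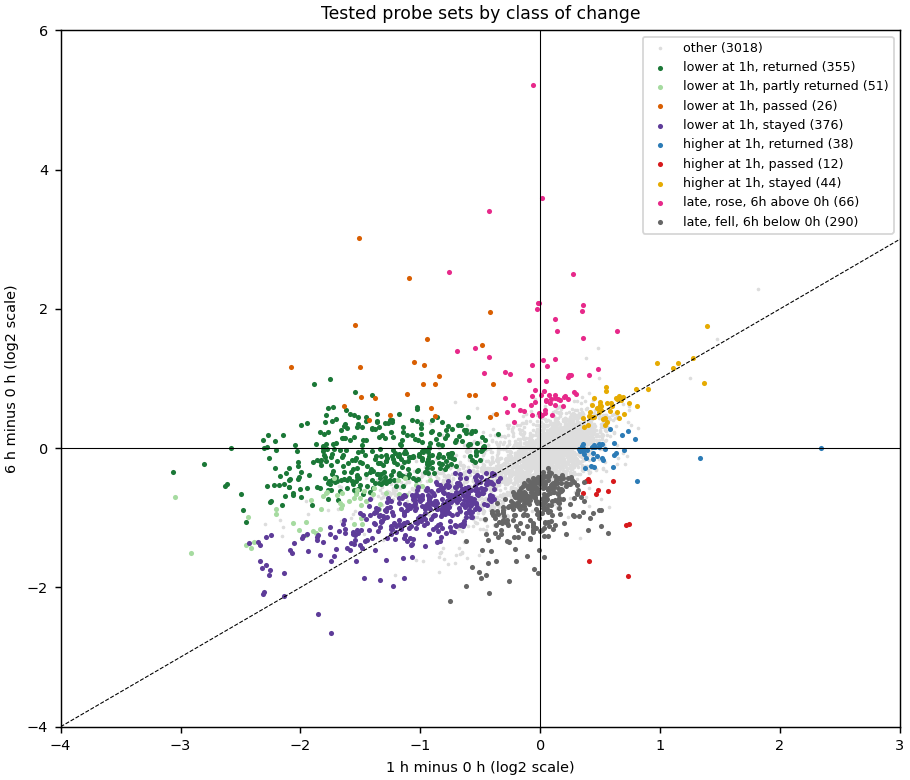
Each point is 1 of 4276 tested probe sets, with its difference of 1 h from 0 h on the x axis and of 6 h from 0 h on the y axis (log2 scale, means of 2 arrays), coloured by class with the number in brackets. Points on the dashed line did not move between 1 h and 6 h, and points on the horizontal line were back at 0 h; both axes use the same 0 h arrays, and the 355 returned probe sets lie left of centre along the horizontal line.

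**Figure D2:**
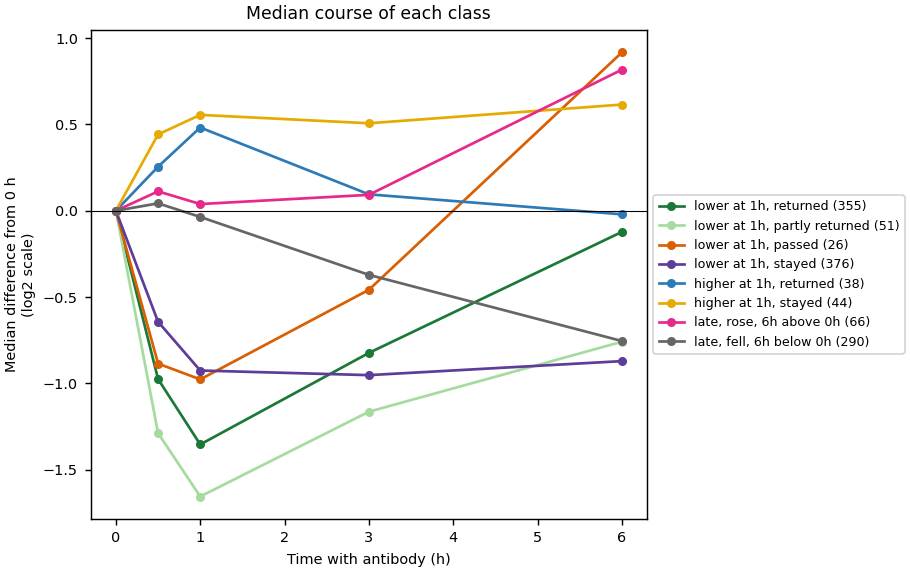
Median difference from 0 h (y axis, log2 scale) of the probe sets of 8 classes against time with antibody in hours (x axis), with the number of probe sets in brackets. The classes were defined from the 0 h, 1 h and 6 h arrays, and at 3 h the returned group stood at -0.82 and the late risers at 0.09.

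Many of the tested targets of the hypoxia-inducible factors rose after 1 h. Of 34 genes on the list, 32 were on the array and 14 were tested, of which 11 rose and 0 fell, with a median difference of 1.83. Over 1 probe set per gene of all 2819 genes tested, 12.1% rose, 12.2% fell and the median was -0.06. The counts of every list below are to be read beside these shares. Of the 11, however, ADM, BNIP3, BHLHE40, P4HA1, SLC2A1 and SLC2A3 did not pass the filter without the 6 h arrays. They were thus picked for being high at 6 h. Of the 8 members that pass without those arrays, 5 rose (DDIT4, PFKFB3, BNIP3L, WSB1 and FAM162A), and the median of the 8 was 1.45. Relative to 0 h, 10 of the 11 stood higher at 6 h, and 4 of the 11 had been lower at 1 h. BNIP3 was 1 of those 4, with all its 0 h and 1 h values under 5. With a filter at log2 7 the list had 7 rises.

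ADM, which encodes the vessel-dilating peptide adrenomedullin, read 2.82 and 2.85 on the 1 h arrays, 7.96 and 8.23 on the 6 h arrays and 2.81 and 2.97 at 0 h. It was near background on every array up to 1 h and well above it on both 6 h arrays. The rise was 5.27 ± 0.20 (SE, adjusted p = 5.88e-06), or 3.10 with values raised to 5. BNIP3, a mitophagy receptor of the outer mitochondrial membrane, read 3.01 and 3.32 at 1 h, 7.75 and 7.65 at 6 h and 4.88 and 4.47 at 0 h. Its 1 h mean was 1.51 below that of 0 h, but all these values lay under 5, so that fall vanishes with values raised to 5. At 6 h it stood 3.02 above 0 h, a rise from 1 h of 4.53 ± 0.21 (adjusted p = 1.57e-05), or 2.70 with values raised to 5. Its second probe set rose by 2.11 ± 0.09, or 0.93 with values raised to 5.

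DDIT4, an inhibitor of the growth kinase complex mTORC1, read 6.60 and 6.32 at 1 h, 10.31 and 10.28 at 6 h and 6.88 and 6.90 at 0 h. It was over 5 on every array, and the 3 h mean of 9.56 was already close to that of 6 h. The rise was 3.83 ± 0.14 (adjusted p = 5.88e-06). BHLHE40, a transcriptional repressor tied to the circadian clock, read 2.67 and 2.70 at 1 h and 6.48 and 6.06 at 6 h, with 2.68 and 2.67 at 0 h. At 3 h its mean was still 2.74. The rise was 3.58 ± 0.14, or 1.27 with values raised to 5. P4HA1, a subunit of the enzyme that hydroxylates collagen prolines, read 2.99 and 2.98 at 1 h, 6.14 and 6.40 at 6 h and 3.38 and 4.11 at 0 h. Its groups were far apart, with a difference of 3.29 ± 0.29 (adjusted p = 0.000396), or 1.27 with values raised to 5.

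PFKFB3, which makes the strongest activator of phosphofructokinase, read 5.89 and 5.66 at 1 h, 8.19 and 8.09 at 6 h and 6.24 and 6.14 at 0 h. It had fallen slightly at 1 h and then rose by 2.36 ± 0.12 (adjusted p = 2.77e-05), to 1.95 above 0 h. BNIP3L, a mitophagy receptor related to BNIP3, rose by 2.08 ± 0.40 on its brighter probe set and by 3.32 ± 0.18 on the other (1.91 with values raised to 5). The first call was lost without 6 h replicate 2 (adjusted p = 0.0549). The remaining members with a call were WSB1 (1.59 ± 0.31, lost without 1 h replicate 1 at adjusted p = 0.0585), SLC2A3 (1.54 ± 0.22, 0.57 with values raised to 5), FAM162A (1.31 ± 0.12) and SLC2A1 (1.13 ± 0.22). SLC2A1 and SLC2A3 encode glucose transporters. For SLC2A1 the call was lost with values raised to 5 (0.53, adjusted p = 0.114) and also when 1 h replicate 1 was left out (adjusted p = 0.0523).

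The 3 tested members without a call were KDM4B (0.25), MIF (0.17) and JMJD6 (-0.08). A further 18 members on the array stayed under the filter and were not tested, among them HIF1A, which encodes the oxygen-regulated subunit itself and read a mean of 3.38 at 1 h and 3.54 at 6 h. Of these 18, EGLN1, a prolyl hydroxylase that marks that subunit for destruction, and KDM3A, a histone demethylase, differed by over 1, with means of 3.42 and 4.82 for EGLN1 and 2.66 and 4.07 for KDM3A. VEGFA, the vessel growth factor, read 2.90 and 3.81. Most of the 18 moved little from 1 h to 6 h, among them NDRG1 (0.13), ERO1A (0.13), PLOD2 (-0.05) and EGLN3 (-0.03).

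**Figure D3:**
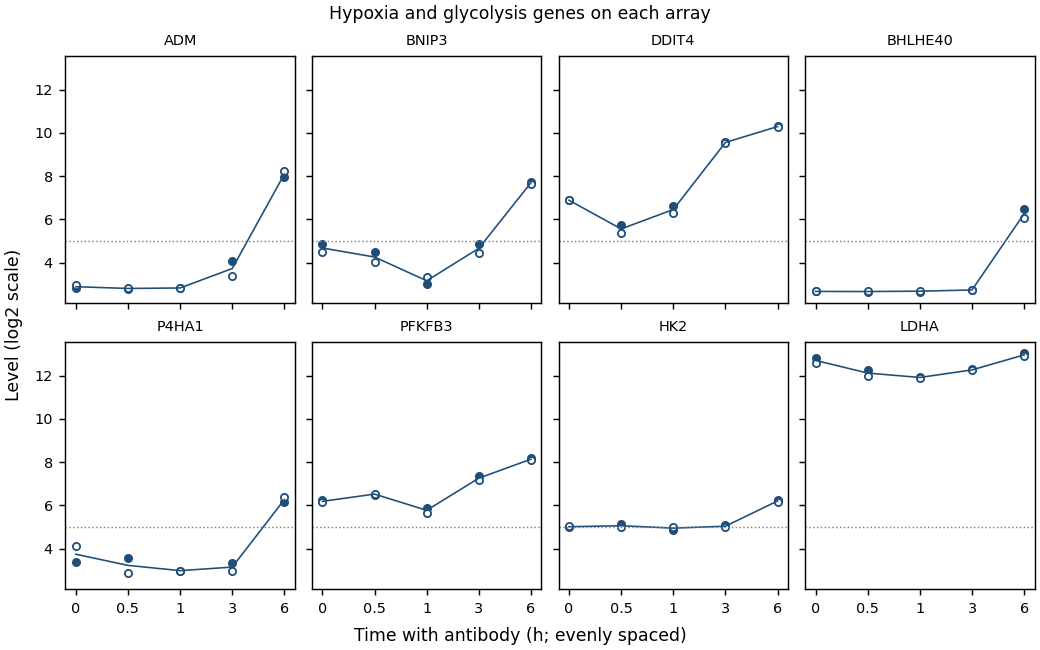
Level (y axis, log2 scale) of 8 hypoxia and glycolysis genes on each array against time in hours (x axis, the 5 times evenly spaced); filled points are replicate 1, open points replicate 2, the line joins the means of 2 arrays and the dotted line marks the filter at 5. ADM, BHLHE40, P4HA1 and HK2 rise mostly between 3 h and 6 h, whereas DDIT4 and PFKFB3 are above their 1 h level at 3 h.

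Glycolysis genes rose in part. Of 20 tested, 10 rose and 1 fell, with a median of 0.45, and 8 of the 17 that pass the filter without the 6 h arrays rose. Of the 10, 7 stood above 0 h at 6 h. With no filter 6 of them kept a call. The members that rose were the transporters SLC2A1 and SLC2A3, PFKFB3, the hexokinases HK1 and HK2, the aldolases ALDOA and ALDOC, the pyruvate kinase PKM and the lactate dehydrogenases LDHA and LDHB. The call was lost without 1 h replicate 2 for ALDOC (adjusted p = 0.0627), without any of the 1 h and 6 h arrays for PKM (0.0637 to 0.117), and for ALDOA in 7 such fits, with 0.178 without 1 h replicate 2 and 0.18 without 6 h replicate 1. HK2, which traps glucose in the cell as its phosphate, read 4.88 and 5.02 at 1 h and 6.26 and 6.15 at 6 h, with 5.01 and 5.03 at 0 h. Its 3 h mean was still 5.04, and from 1 h to 6 h it rose by 1.26 ± 0.10 (adjusted p = 0.000248), or 1.20 with values raised to 5. HK1 rose by 1.07 ± 0.14 to 0.97 above 0 h. LDHA, which turns pyruvate into lactate, read 11.92 and 11.91 at 1 h, 13.03 and 12.89 at 6 h and 12.83 and 12.58 at 0 h. It had fallen at 1 h and returned, with a rise of 1.04 ± 0.13 (adjusted p = 0.00122). LDHB returned only in part, at -1.13 from 0 h at 1 h and -0.42 from 0 h at 6 h. GAPDH (-0.13), ENO1 (0.15) and PGK1 (0.19) had no call, and PFKM, the muscle form of phosphofructokinase, fell by 0.61 ± 0.13. Leaving out 1 h replicate 1 gave that fall an adjusted p of 0.0789, and leaving out 6 h replicate 2 one of 0.0674.

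Some genes of the protein-making and protein-degrading machinery were lower at 1 h and rose by 6 h, as did most genes that rose at all. Over 1 probe set per gene, 22.6% of the 2819 genes were lower at 1 h, and so were 271 (79.2%) of the 342 that rose and 17 (4.96%) of the 343 that fell. Both comparisons use the same 1 h arrays, so a low reading there favours both calls and these shares are partly built in. The same holds for such counts in any list. Of 34 proteasome genes tested, 8 rose and 8 fell, with a median of -0.20. All 8 that rose had been lower at 1 h, and of the 8 that fell, 1 had. PSMA1, a subunit of the proteolytic core, read 7.81 and 7.62 at 1 h, 9.75 and 9.64 at 6 h and 9.54 and 9.15 at 0 h. Both 6 h arrays lay above both 0 h arrays, with no call between those times, and the rise was 1.98 ± 0.16 (adjusted p = 0.000248). PSMD14, which strips ubiquitin from substrates, rose by 2.58 ± 0.34, or 1.91 with values raised to 5, after it fell by 2.80 at 1 h. PSMA4 rose by 2.09 ± 0.25. PSMC6, an ATPase of the cap, rose by 2.17 ± 0.12 to pass 0 h by 1.19, or by 0.95 with values raised to 5. It did not pass the filter without the 6 h arrays.

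Of 52 cytosolic ribosomal protein genes, 10 rose and 0 fell, with a median of -0.03, so most had no call. All 10 had been lower at 1 h, as had 79.2% of all genes that rose. Of the 10, 9 returned, with no call between 6 h and 0 h. RPL7 read 11.04 on both 1 h arrays, 12.65 and 12.70 at 6 h and 12.21 and 12.41 at 0 h. It rose by 1.64 ± 0.19 (adjusted p = 0.000992) to a level with no call against 0 h, although both 6 h arrays lay above both 0 h arrays. RPL6 rose by 1.52 ± 0.18 and RPS24 by 1.14 ± 0.11. RPL14, which also has pseudogene copies that its probe set may read, rose by 1.49 ± 0.11 and stood 0.58 above 0 h.

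Among 36 translation initiation and elongation factors, 9 rose and 7 fell, beside 12.1% and 12.2% of all genes, with a median of 0.04. Of the 9 that rose, 8 had been lower at 1 h. EIF3E, a subunit of the factor that brings mRNA to the small ribosomal subunit, read 5.48 and 5.44 at 1 h, 8.56 and 8.87 at 6 h and 7.74 and 7.35 at 0 h. Both 6 h arrays were above both 0 h arrays, and the rise was 3.25 ± 0.29 (adjusted p = 0.000409). EIF3M (1.85 ± 0.24), EIF3L (1.62 ± 0.17) and EIF2S1 (1.48 ± 0.17) rose to levels with no call against 0 h. EIF1, which guards start codon choice, went the other way, with a difference of -1.18 ± 0.14 on one probe set and of -1.13 to -0.41 on 4 others, of which that of -0.41 had no call. Its summary for the list is the brightest set, at -0.43, a call lost without any 1 of the 1 h and 6 h arrays (adjusted p = 0.0582 to 0.079). EIF4B illustrates a disagreement between probe sets: one rose by 2.58 ± 0.38 (1.45 with values raised to 5), and the other 2 moved by -0.04 and 0.69.

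Other genes that had fallen at 1 h and returned came from several groups. NPM1, an abundant nucleolar chaperone, read 9.86 and 9.82 at 1 h, 11.41 and 11.46 at 6 h and 11.66 and 11.27 at 0 h. It was back within the 0 h range, and the rise was 1.59 ± 0.20 (adjusted p = 0.00122), with 1.76 and 1.79 on its other 2 probe sets. GATA3, a transcription factor of T-cell development, rose by 1.06 ± 0.16 to 0.07 below 0 h. Of 23 nuclear pore and transport genes, 5 rose and 2 fell, beside 12.1% and 12.2% of all genes. The rises included NUP50 (1.70 ± 0.20) and the import receptor IPO5 (1.62 ± 0.25, 0.83 with values raised to 5). IPO5 did not pass the filter without the 6 h arrays. Of 62 respiratory chain and ATP synthase genes, 4 rose and 8 fell, which is near or under the shares of all genes.

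Beyond the hypoxia targets, KLF10, a zinc-finger repressor induced by TGF-beta, and CCNG1, the cyclin G1 known as a p53 target, passed their 0 h level. KLF10 read 4.18 and 4.16 at 1 h, 6.78 and 6.92 at 6 h and 5.63 and 5.73 at 0 h. It fell and then overshot, with a rise of 2.68 ± 0.22 (adjusted p = 0.000253), 1.85 with values raised to 5. CCNG1 read 3.33 and 3.40 at 1 h, 6.78 and 7.03 at 6 h and 4.81 and 4.12 at 0 h. That is a rise of 3.53 ± 0.26, or 1.90 with values raised to 5, in a probe set that passed the filter on 6 h arrays only. All its 0 h and 1 h values lay under 5, so its fall at 1 h vanishes with values raised to 5. The p53 list as a whole had 6 tested members, of which 2 rose and 1 fell. Of 8 immediate early genes tested, 3 rose (KLF10, IER3 and JUND) and 1 fell (MYC). IER3 passed the filter on 6 h arrays only, and 2 of the 7 others rose. JUND, an AP-1 subunit, rose by 1.23 ± 0.20 to 1.59 above 0 h.

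Some genes differed from 0 h at both 1 h and 6 h, with no call between those times, which does not show that they stayed level in between. HSPA5, the main chaperone of the endoplasmic reticulum, read 8.31 and 8.14 at 1 h, 7.86 and 7.98 at 6 h and 9.42 and 9.18 at 0 h. It was lower than 0 h at both times, and its change from 1 h to 6 h was -0.31 ± 0.30 (adjusted p = 0.51), with a lower mean of 6.35 at 3 h. SAR1A, a GTPase of vesicle budding, stood at -2.38 from 0 h at 6 h and SEH1L, a nuclear pore protein, at -2.65. NETO2 was 2.13 below 0 h, with all 1 h and 6 h values under 5. On the high side, IER2, an immediate early gene, read 8.68 and 8.32 at 1 h and 7.97 and 8.16 at 6 h, against 6.81 and 7.46 at 0 h. IER2 was 0.93 above 0 h at 6 h, but its 3 h mean of 7.27 was close to the 0 h mean of 7.13. TCF3, the E protein that ID proteins bind, was 0.55 above 0 h at 1 h and 0.88 at 6 h on the probe set placed in this class, while 6 other probe sets moved by -0.16 to 0.13 from 1 h to 6 h. Genes that regained part of a fall included NAP1L1, a histone chaperone (1.29 ± 0.14, still 0.43 below 0 h), and CD164, a sialomucin (2.35 ± 0.22, or 2.01 with values raised to 5, and 0.70 below 0 h on one probe set, 1.60 ± 0.25 and no call against 0 h on its brightest).

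The largest fall among the 38 probe sets that returned from above was that of ID1, a protein that blocks the DNA binding of E proteins. It read 5.93 on both 0 h arrays, 8.30 and 8.23 at 1 h, and 5.95 and 5.90 at 6 h. The 6 h and 0 h arrays overlap, and neither 1 h array comes near them. The fall was -2.34 ± 0.09 (adjusted p = 5.89e-06), and at 3 h the mean was already 6.02. ID3 had no call from 1 h to 6 h (-0.03). PCBP2, an RNA-binding protein, returned on one probe set (-1.48 ± 0.14, or -1.10 with values raised to 5), while its 2 others moved by -0.35 and -0.11.

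YRDC, an enzyme of tRNA modification, read 8.61 and 8.69 at 1 h, 6.16 and 5.98 at 6 h and 7.88 and 7.95 at 0 h. It had been higher at 1 h and then fell past 0 h, by -2.58 ± 0.19 (adjusted p = 0.000156). SRSF6, a splicing factor of the SR family, did the same on one probe set, with 8.73 and 8.83 at 1 h, 6.81 and 6.69 at 6 h and 8.45 and 8.30 at 0 h (-2.03 ± 0.11, adjusted p = 2.78e-05). Its other probe set already stood at -2.31 from 0 h at 1 h and showed no call afterwards (0.21 ± 0.28), so the 2 disagree on the time of the fall. CIRBP, an RNA-binding protein induced by cold, fell by -1.83 ± 0.14 and -1.58 ± 0.23 on its 2 probe sets.

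The larger share of falls had no call at 1 h. ODC1, the first enzyme of polyamine synthesis, read 10.42 and 10.33 at 1 h, 8.92 and 8.93 at 6 h and 10.43 and 10.34 at 0 h. It was level until 1 h and lower on both 6 h arrays, by -1.45 ± 0.10 (adjusted p = 0.000136). MYC, the growth transcription factor for which ODC1 is a known target, read 10.07 and 10.15 at 1 h and 9.0 and 9.10 at 6 h, with 10.44 and 10.33 at 0 h. The fall was -1.06 ± 0.11 (adjusted p = 0.000628). Of the 9 genes tested on the MYC and MAX list, 4 fell (MLX, MYC, TXNIP and ODC1) and 1 rose (NPM1). For MLX the call was lost in 9 of 10 fits with an array left out, with 0.216 without 1 h replicate 1. TXNIP, which binds and inhibits thioredoxin, changed by -1.12 ± 0.21 on its brightest probe set, or by -0.71 with values raised to 5, and leaving out 1 h replicate 1 ended that call at an adjusted p of 0.0603. MAT2A, which makes S-adenosylmethionine, had been 0.51 lower at 1 h and fell a further 1.03.

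DYNLL1, a dynein light chain, read 11.62 and 11.85 at 1 h, 10.27 and 10.29 at 6 h and 11.57 and 11.46 at 0 h (-1.45 ± 0.14, adjusted p = 0.000516). PMAIP1, the BH3-only death protein NOXA, read 7.93 and 7.85 at 1 h, 6.62 and 6.51 at 6 h and 7.93 and 7.72 at 0 h (-1.32 ± 0.12, adjusted p = 0.000438). In both genes the groups are well separated, and PMAIP1 was at its 6 h level by 3 h (6.50). Of 21 tested genes of the BCL2 family and death factors, 4 rose, BNIP3 and BNIP3L among them, and 2 fell, PMAIP1 and CASP2. BNIP3 did not pass the filter without the 6 h arrays, and 3 of the 20 others rose. These counts are near the shares of all genes, of which 12.1% rose and 12.2% fell. CASP2 had no call when 1 h replicate 1 was left out (adjusted p = 0.0598), nor when either 6 h array was (0.0659 and 0.0549). BCL2, MCL1 and BAX had no call (-0.07, 0.26 and -0.05).

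Ribosome biogenesis factors fell in part: of 20 tested, 5 fell and 2 rose, with a median of -0.29. MRTO4 and NOP16, which act in assembly of the large ribosomal subunit, fell by -1.26 ± 0.13 and -1.11 ± 0.10. MRTO4 read 8.71 and 8.42 at 1 h and 7.20 and 7.41 at 6 h, with 8.52 and 8.41 at 0 h. Leaving out the second 1 h array took the falls to 2 and leaving out the second 6 h array to 3, and NPM1, on this list as well, rose.

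Endoplasmic reticulum chaperones and unfolded protein response genes fell in part: of 15 tested, 6 fell and 2 rose, with a median of -0.44. Leaving out 1 h replicate 1 took the falls to 2, and leaving out 6 h replicate 2 took them to 3. HERPUD1, which serves degradation at that membrane, read 7.94 and 7.70 at 1 h, 6.16 and 6.65 at 6 h and 7.50 and 7.30 at 0 h (-1.41 ± 0.17, adjusted p = 0.00108). Its 2 groups lie apart, and it is the largest fall of the list. PDIA4, a disulfide isomerase, fell by -0.66 ± 0.13, which had an adjusted p of 0.0699 when 1 h replicate 1 was left out and 0.0629 when 6 h replicate 2 was. CANX, a lectin chaperone, rose by 1.37 ± 0.27 after a fall of 1.74, which had no call without 1 h replicate 1 or 6 h replicate 2 (0.0635 and 0.0611 as adjusted p). Of 14 tested genes of the ATF4 amino acid response, 1 fell, ATF4 itself by -0.49 ± 0.12, and 0 rose. Its adjusted p was 0.0772 and 0.0706 with the first and second 1 h array left out, and 0.0989 with 6 h replicate 2 left out.

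Most heat shock proteins of cytosol and mitochondria had no call. Of 20 tested, 6 rose and 2 fell, beside 12.1% and 12.2% of all genes, with a median of 0.11. All 6 that rose had been lower at 1 h. Without 1 h replicate 2 or without 6 h replicate 2 the count was 2. HSPA14, an HSP70 of the ribosome, rose by 1.77 ± 0.25 (1.41 with values raised to 5). HSPD1, the mitochondrial chaperonin, read 8.37 and 7.96 at 1 h, 9.37 and 9.72 at 6 h and 9.88 and 9.54 at 0 h. Its 6 h arrays were above both 1 h arrays and no longer differed from 0 h, with a rise of 1.38 ± 0.23 (adjusted p = 0.00476).

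DNA replication genes split. Of 43 tested, 10 rose and 10 fell, beside 12.1% and 12.2% of all genes, with a median of -0.14. PRIM1, among the rises, did not pass the filter without the 6 h arrays, and 9 of the 42 others rose. Of those that rose, 9 had been lower at 1 h. Of those that fell, none had been, and 8 ended below 0 h. With 1 h replicate 1 or 6 h replicate 1 left out, the falls numbered 6. The 2 subunits of ribonucleotide reductase, which makes deoxynucleotides, went opposite ways. RRM1 read 6.11 and 4.97 at 1 h, 7.75 and 8.24 at 6 h and 7.69 and 7.92 at 0 h, and rose by 2.46 ± 0.39 (adjusted p = 0.00368). RRM2 read 9.97 and 9.58 at 1 h, 8.38 and 8.45 at 6 h and 10.37 and 10.17 at 0 h, and fell by -1.37 ± 0.16 (adjusted p = 0.00108) on its brightest probe set, whereas the other tested probe set moved by 0.04. MCM6, of the replicative helicase, returned (1.62 ± 0.23), and POLE3, a small subunit of DNA polymerase epsilon, fell late (-1.18 ± 0.17). Of 26 tested genes of G2 and mitosis, 4 rose and 3 fell, which is near the shares of all genes (12.1% and 12.2%).

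The hnRNP and SR splicing proteins split as well, with 7 rises and 11 falls of 40 and a median of -0.10. All 7 that rose had been lower at 1 h, as had 3 of the 11 that fell. The falls numbered 5 without 1 h replicate 1 and 7 without 6 h replicate 1. SF3B1, of the U2 snRNP, rose by 1.70 ± 0.27 (1.02 with values raised to 5). HNRNPA0 fell by -1.20 ± 0.13 on its brightest probe set, with 0.02 on the other, and SRSF1 fell a further 0.97 on one of 3 probe sets after a drop at 1 h. Another of the 3 SRSF1 probe sets was also called from 1 h to 6 h, with its difference not given here.

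**Figure D4:**
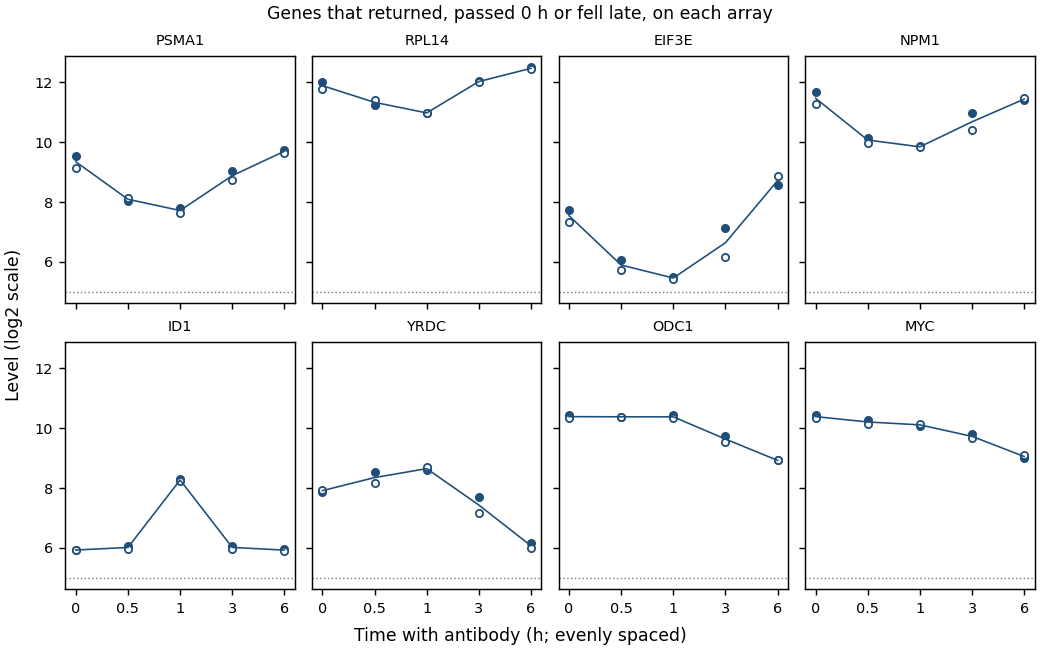
Level (y axis, log2 scale) of 8 genes on each array against time in hours (x axis, the 5 times evenly spaced), drawn with filled points for replicate 1, open points for replicate 2, a line through the means and a dotted line at 5. PSMA1, RPL14, EIF3E and NPM1 dip at 1 h and rise by 6 h. RPL14 ends above its 0 h level, and in PSMA1 and EIF3E both 6 h arrays lie above both 0 h arrays. ID1 peaks and returns, YRDC falls past its 0 h level, and ODC1 and MYC fall after 1 h.

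**Figure D5:**
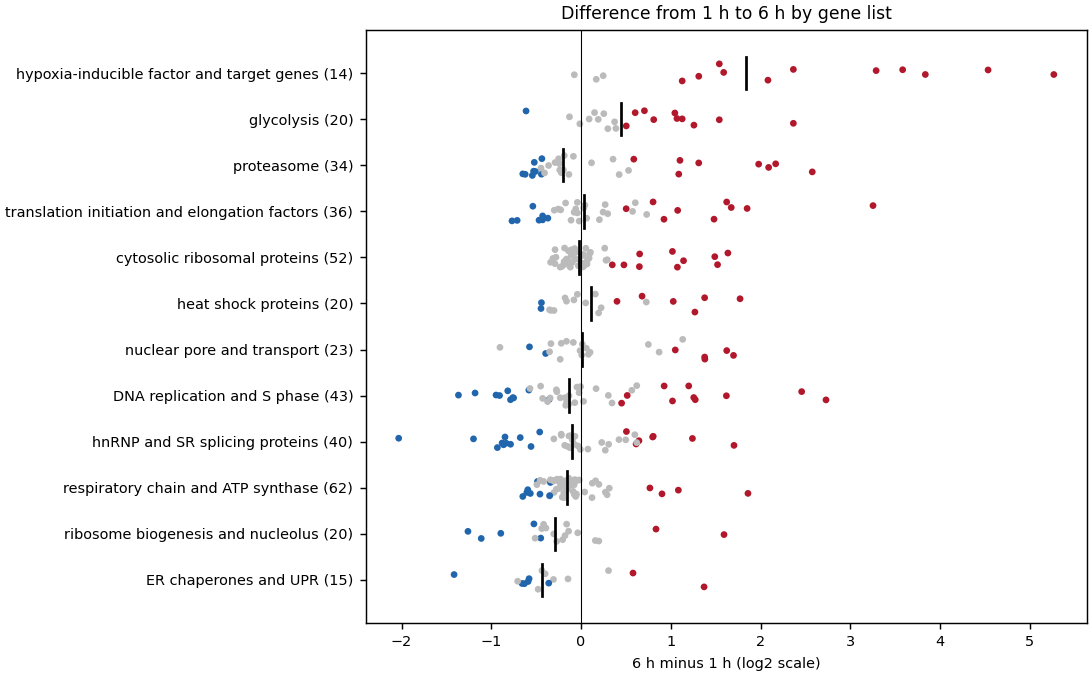
Difference of 6 h from 1 h (x axis, log2 scale) of each tested gene of 12 lists (rows, number tested in brackets), red where it rose, blue where it fell and grey where it had no call; the black bar is the median of the list. The hypoxia list has a median of 1.83, or 1.45 over the 8 members that pass the filter without the 6 h arrays, and the endoplasmic reticulum list one of -0.44; vertical scatter within a row carries no meaning.

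CD47 itself, the antigen, read 8.60 and 8.33 at 1 h, 8.87 and 8.96 at 6 h and 8.98 and 8.94 at 0 h. It had been 0.49 lower at 1 h and was 0.04 below 0 h at 6 h. The rise of 0.45 ± 0.13 was called at adjusted p = 0.0429, and over 21 other fits the adjusted p ran from 0.0119 to 0.203, with 12 of them not called. With 1 h replicate 2 left out it was 0.203, and with 6 h replicate 2 left out 0.172. Its other tested probe set moved by 0.09. GNAI3, an inhibitory G protein subunit from the CD47 list, rose by 1.85 ± 0.34 (1.79 with values raised to 5) after a fall of 1.79, while its second probe set moved by 0.09. Without 6 h replicate 2 its adjusted p was 0.05, past the threshold. Of 26 tested T-cell receptor and surface genes, 3 rose and 2 fell, which is near the shares of all genes.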

How the data were processed

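RNA of MOLT-4 cells was hybridised to Affymetrix human expression arrays. Each probe set has 1 deposited score, for which the submitters' processing notes name GCRMA as the authors' method, with version and later steps not given in the sources used here. The scores run from 1.25e-05 to 238.1, and their square roots, up to 15.43, were read as log2 levels. That scale is a reading of the data, not stated by the authors, and every fold depends on it. A probe set was tested where its deposited score was at least 25 on at least 2 arrays. limma 3.58.1 in R 4.3.3 (lmFit, eBayes) was fitted to all 10 arrays with time as the factor (5 residual degrees of freedom), with p-values adjusted by Benjamini-Hochberg over 4276 probe sets and called at 0.05. The fit was also run on simulated data, with the outcome not given here. Symbols came from the platform annotation, updated through RefSeq (GRCh38.p14): of 22283 probe sets 19071 had 1 symbol, 1043 several and 2169 none, and only the first kind names genes. List counts use the brightest probe set of each gene.

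Named genes are, among called probe sets whose 6 h arrays both lie on one side of both 1 h arrays, up to 15 with the highest and 15 with the lowest difference, up to 6 per class and direction, up to 4 per list by moderated t, and CD47, HIF1A, ID1, DDIT4, BNIP3, HSPA5, TXNIP and MYC. Other list members named were chosen after their values were seen. The arrays compared, the members and the lists were chosen with earlier results of these data known. Alternatives changed the scale, filter, floor, normalization, covariates, arrays fitted and replicate block. The number of arrays limits the precision.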

Additional observations from a re-analysis of the deposited data

Results flagged for a closer look

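The control probe sets, which no comparison used, gave higher signal at 6 h than at 0 h. The 18S rRNA control probe sets had a mean level of 11.67 at 6 h, above 9.03 at 0 h. The spike-in control probe sets had a mean level of 10.63 at 6 h, above 10.00 at 0 h. Neither was tested beyond the fits that use them as covariates.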

How the results depend on the processing

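None of the 1022 calls from 1 h to 6 h changed direction while called in any of 21 other fits. With no filter 482 probe sets were called (281 higher, 201 lower), and a 2-fold rule gave 297 (245 and 52). With the spike-in level as a covariate there were 463 (300 and 163), with the 18S level 233 lower, and with only the 1 h and 6 h arrays 269 lower. Leaving out 1 array gave 537 to 1060 calls, 290 to 554 higher and 160 to 506 lower. At 1 h against 0 h, higher calls numbered 112 with no filter, 1389 with equal medians, 999 with quantile normalization, 3 with 18S, 53 with spike-ins and 47 to 167 with an array left out. Lower calls numbered 617 with a filter at log2 7, 84 with 18S and 604 to 1036 with an array left out. At 6 h against 0 h, higher calls numbered 613 with equal medians, 477 with quantile normalization, 6 with 18S, 10 with spike-ins and 77 to 194 with an array left out. Lower calls numbered 533 with no filter, 603 with equal medians, 0 with 18S, 11 with spike-ins and 349 to 993 with an array left out.

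Returned from below numbered 173 with no filter, 66 with 18S, 234 with spike-ins and 196 to 374 with an array left out. Part-returned numbered 31 on the log2 of the deposited values, 2 with no filter, 0 with either covariate and 8 to 86 with an array left out. Passed from below numbered 17 on that log2 scale, 15 with no filter, 13 at log2 7, 65 with equal medians, 45 with quantile normalization, 0 with 18S, 1 with spike-ins and 8 to 29 with an array left out. Stayed low numbered 250 with no filter, 229 at log2 7, 217 with equal medians, 0 with 18S, 6 with spike-ins and 111 to 396 with an array left out. Returned from above numbered 60 on untransformed values, 24 with no filter, 284 with equal medians, 191 with quantile normalization, 2 with 18S, 9 with spike-ins and 10 to 35 with an array left out. Stayed high numbered 355 with equal medians, 240 with quantile normalization, 0 with either covariate and 14 to 52 with an array left out. Late rises to above 0 h numbered 38 at log2 7, 6 with 18S, 9 with spike-ins and 46 to 71 with an array left out. Late falls to below 0 h numbered 118 with no filter, 0 with 18S, 2 with spike-ins and 123 to 300 with an array left out.

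Hypoxia genes that rose numbered 7 at log2 7 and 9 to 11 with an array left out, and glycolysis genes 6 with no filter and 7 to 11. Endoplasmic reticulum genes that fell numbered 1 with no filter, 3 with only the 1 h and 6 h arrays, 3 with 18S, 1 with spike-ins and 2 to 5 with an array left out. Heat shock genes that rose numbered 1 with no filter, 2 with spike-ins and 2 to 7. Ribosome biogenesis genes that fell numbered 2 with no filter, 3 with only the 1 h and 6 h arrays, 2 with either covariate and 2 to 6. hnRNP and SR genes that fell numbered 5 with no filter, 7 with 18S, 6 with spike-ins and 5 to 11. DNA replication genes that fell numbered 6 with no filter, 5 with spike-ins and 6 to 12. Where an alternative moved a value, the cause was not tested.

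The sign turned only for named genes without a call; their highest values with an array left out were 0.97 for EIF5A, 0.58 for SRSF6, 0.25 for EEF1D, 0.062 for LSM4 and 0.12 for NETO2. LSM4 was -0.023 with equal medians, -0.064 with quantile normalization, -0.098 with 18S, -0.26 with spike-ins, -0.032 without 1 h replicate 1 and -0.023 without 6 h replicate 2. EEF1D was -0.13 with 18S, -0.18 with spike-ins, -0.065 without 1 h replicate 2 and -0.12 without 6 h replicate 2. NETO2 was -0.025 with equal medians, -0.086 without 1 h replicate 2 and -0.092 without 6 h replicate 2. SRSF6 on its second probe set was -0.17 and -0.045 without those 2 arrays, EIF5A -0.23 without 6 h replicate 1, COX5B -0.046 with spike-ins and HSPA5 0.010 with 18S. EIF5 and NETO2 give no value with a floor at log2 5, where all their 1 h and 6 h arrays lie at the floor.

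With the replicate number as a block, 1053 probe sets were called (536 higher, 517 lower), and no count above moved by over 1.5 times. The numbers do not pair the arrays: of 10 same-number pairs, 2 had deviations correlated over 0.1, with a range of -0.23 to 0.15 and -0.045 for 1 h and 6 h.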
